A study of Homo sapiens with 2 samples.

Results

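The replication-dependent histone genes lie in 3 clusters, HIST1 on chromosome 6 and HIST2 and HIST3 on chromosome 1, and the H3K4me3 regions over these clusters were described in HEC-1-B cells with and without ZNF143. A region was counted as a member when it overlapped 1 of 3 hg19 windows by at least 1 bp: chr6:26017000-27862000 for HIST1, chr1:149780000-149860000 for HIST2 and chr1:228610000-228660000 for HIST3. The windows were set by position and not by any measured value. They held 81 of 19782 regions in the wild-type list and 81 of 19647 in the ZNF143 knockout list, with 67 regions in HIST1, 12 in HIST2 and 2 in HIST3 in each list.

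Histones package DNA, and a dividing cell needs a large supply of them during S phase. The replication-dependent genes that make the core histones H2A, H2B, H3 and H4 and the linker histone H1 sit close together, have no introns and give messages that end in a stem-loop in place of a poly(A) tail. H3K4me3, trimethylation of lysine 4 of histone H3, is concentrated around the start sites of active genes. ZNF143 is a zinc-finger transcription factor that binds many promoters.

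H3K4me3 was profiled by chromatin immunoprecipitation and sequencing with a Cell Signaling antibody in HEC-1-B, a long-established line from a human adenocarcinoma of the endometrium. The groups were 1 library of wild-type cells and 1 library of ZNF143 knockout cells derived from the same line. No treatment, allele or time point was given for either, and how the knockout was made and whether it was 1 clone are not given in the sources used here. With 1 library per genotype there is no replicate check. No difference below was tested, and each interval covers counting error or the spread over regions only.

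The fold of a region is the authors' own value, the fragments stacked at its summit over a local background rate. The −log10 q is the authors' significance of that enrichment. Both were turned into percentiles within 1 list, so that 100 is the strongest region of that list. The summit pileup, in fragments, and the local rate were solved from the deposited fold and −log10 p columns. The lowest local rate, taken as the genome rate of a library, was 1.40 fragments per base in wild type and 3.25 in the knockout, a ratio of 2.31, and the median pileup over all regions was 197 and 355 fragments. Region lists hold no measure of ZNF143 itself, so they do not check the genotype.

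The RefSeq gene table, on GRCh38.p14, was used for names and gene order, and no hg19 annotation was used here, so no region is assigned to a gene. It lists 55 replication-dependent histone genes in HIST1 (6 H1, 12 H2A, 15 H2B, 10 H3 and 12 H4), 11 in HIST2 and 2 in HIST3. From H1-1 to H2BC17, HIST1 falls into 3 groups of histone genes. H2AC1 and H2BC1, also counted in HIST1, lie outside this stretch. H1-1 to H4C8 form a group of 32, with the iron regulator gene HFE inside it, H2BC11 to H2AC12 a group of 5, and H2BC13 to H2BC17 a group of 16. Between the first and the second stand 9 other coding genes, 6 of them butyrophilin (BTN) genes, and between the second and the third stand 5, ZNF391 and ZNF184 among them. Over the 3 clusters together, H2A and H2B genes are direct neighbours in 14 places.

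HIST2 promoters are shown here because this cluster carries near-copies of the same genes and because they show H4, H3, H2A and H2B promoters side by side. The sequences are RefSeq's, the 250 bases before the start site, on GRCh38.p14, written 5′ to 3′ on the gene's own strand. They come from chr1:149832407-149832656 on the plus strand for H4C14 (a histone H4 gene), chr1:149841209-149841458 on the minus strand for H3C14 (H3), chr1:149842751-149843000 on the minus strand for H2AC18 (H2A) and chr1:149886683-149886932 on the minus strand for H2BC21 (H2B). Capitals mark TATAAA (the TATA box), CCAAT (the CCAAT box), ATTTGCAT (the octamer), ACTACAA (the core of the ZNF143 site) and GGTTTTC (a core of the H4 promoter site) on either strand.
H4C14: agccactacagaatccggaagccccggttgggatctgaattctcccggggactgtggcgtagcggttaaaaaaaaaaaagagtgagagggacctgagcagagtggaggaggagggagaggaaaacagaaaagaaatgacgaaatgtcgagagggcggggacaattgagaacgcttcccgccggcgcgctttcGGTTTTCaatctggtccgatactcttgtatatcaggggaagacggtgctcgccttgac
H3C14: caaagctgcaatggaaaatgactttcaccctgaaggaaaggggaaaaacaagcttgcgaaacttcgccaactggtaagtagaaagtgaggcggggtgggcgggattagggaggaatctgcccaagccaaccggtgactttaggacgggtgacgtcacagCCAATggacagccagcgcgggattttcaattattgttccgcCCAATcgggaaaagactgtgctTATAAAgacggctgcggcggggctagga
H2AC18: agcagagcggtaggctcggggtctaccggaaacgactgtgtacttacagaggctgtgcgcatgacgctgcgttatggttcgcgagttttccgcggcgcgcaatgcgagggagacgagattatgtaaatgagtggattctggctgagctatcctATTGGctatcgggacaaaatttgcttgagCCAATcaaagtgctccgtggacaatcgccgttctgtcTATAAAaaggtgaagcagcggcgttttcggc
H2BC21: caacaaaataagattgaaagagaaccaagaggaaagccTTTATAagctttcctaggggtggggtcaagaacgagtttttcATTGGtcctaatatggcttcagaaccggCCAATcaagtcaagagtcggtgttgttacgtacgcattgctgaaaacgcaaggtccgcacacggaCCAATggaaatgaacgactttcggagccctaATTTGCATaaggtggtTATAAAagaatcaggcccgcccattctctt

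Promoter entries were found for 63 of the 68 histone genes, 67 entries in all, and not for H2AC12, H3C11, H3C12, H4C1 and H4C3. CCAAT stood in 58 of the 67 (86.6%), against 32.0% of 35116 promoters in the whole table. Every H1, H2A, H2B and H3 entry held it, and 3 of 12 H4 entries did. TATAAA stood in 44 (65.7%), against 10.7%. The octamer stood in 27 (40.3%), against 1.63%, with 15 of 20 H2B and 11 of 16 H2A entries and none of the H1 or H4 entries. GGTTTTC stood in 6 (8.96%), against 3.48%, and 4 of those were H4 entries. ACTACAA stood in 1 (1.49%), that of H4C7, against 2.47%. Matches of different motifs never overlapped in these entries. A match describes letters and is not a bound site.

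The HIST2 genes run, in order, H2BC18, H3C13, H4C14, H3C14, H2AC18, H2AC19, H3C15, H4C15, H2BC21, H2AC20 and H2AC21. The middle 6 repeat in mirror order on opposite strands. The upstream bases of H4C14 and H4C15 were identical over 250 bases, those of H2AC18 and H2AC19 over 249 and those of H3C14 and H3C15 over 246. H2AC18 and H2AC20 shared 30.1% of bases in the same kind of ungapped alignment, and H3C13 and H3C14 shared 37.2%. H2BC21 and H2AC20, an H2B and H2A pair that points away from each other, had promoter entries that overlapped by 265 bases. An overlap of that length means that these entries reach beyond the 250 bases shown above.

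H3K4me3 regions were packed more densely in all 3 windows than over the rest of their chromosomes. HIST1 held 36.3 regions per Mb in each list, against 5.38 over the rest of chromosome 6 in wild type and 5.35 in the knockout, a ratio of 6.75 and 6.78. Of 91 tiles of the same length along chromosome 6, none held more in either list, and the median tile held 8. HIST2 held 150 regions per Mb in each list, against 7.90 and 7.63 over the rest of chromosome 1, a ratio of 19.0 and 19.7. Of 3115 tiles of its length, 1 held more in wild type and 2 in the knockout. HIST3 held 40 per Mb, a ratio of 5.06 and 5.24, and it is a window of only 2 regions: 174 and 150 of 4983 tiles held more. The regions covered 2.33% and 2.78% of the HIST1 window, against 0.501% and 0.557% of the rest of chromosome 6. They covered 15.8% and 16.1% of HIST2, against 0.723% and 0.787% of the rest of chromosome 1.

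The many HIST1 regions were narrow and weak for their lists. Their median width was 620 bp in wild type (95% interval of the median 520 to 718) and 708 bp in the knockout (642 to 843), against 910 and 1035.5 bp over the rest of chromosome 6. Their median fold percentile was 30.5 (24.1 to 36.9) and 36.0 (29.9 to 45.7), against 45.2 and 46.8. By −log10 q the median percentile was 22.0 (19.0 to 27.0) and 27.1 (24.6 to 31.6), against 42.4 and 42.2. None of the 67 HIST1 regions stood above the list median by −log10 q in either list, whereas 42.2% and 43.3% of the rest of chromosome 6 did. By fold, 19 of the 67 in wild type (28.4%) and 24 in the knockout (35.8%) stood above it, against 45.7% and 46.2%. The median summit pileup was 40 fragments in wild type, with a range of 8 to 134, and 94 in the knockout, with a range of 12 to 237.

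A low pileup was shared by the chromosome around HIST1. In wild type, all 147 regions between chr6:18388946 and chr6:31588513, a stretch of 13.2 Mb, lay below the list's median pileup, and 80 of them lay outside the HIST1 window. In the knockout all 151 regions over the matching stretch did, 84 of them outside the window. The regions outside the window in this stretch had a median pileup percentile of 22.7 and 22.2, and those of HIST1 21.3 and 25.9. The median fold percentile of those outside the window was 34.9 and 37.1. Within 2 Mb on either side of the window, 1 of 32 regions in wild type and 1 of 35 in the knockout stood above the list median by −log10 q. The median −log10 q percentile of those flanks was 32.7 and 35.4, their median fold percentile 59.6 and 60.4 and their median width 845 and 953 bp, so the flanks shared the low rank by −log10 q and not the low fold or the narrow width. The stretch was chosen after the values were seen, and its part in the HIST1 ranks was not tested.

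HIST2 differed from HIST1 in how its regions ranked. The median width was 944 bp in wild type (801 to 1206) and 978 bp in the knockout (884 to 1092), beside 902 and 1030 bp over the rest of chromosome 1. The median fold percentile was 22.7 (9.65 to 32.3) and 23.5 (18.4 to 38.8), against 52.3 and 52.7. By −log10 q it was 42.4 (36.8 to 55.1) and 50.4 (47.5 to 55.0), beside 55.2 and 54.9. The median pileup was 217 fragments in wild type and 550 in the knockout, beside 246 and 420 over the rest of chromosome 1. The local rate that divides them was high. It stood at a median of 28.8 times the genome rate in wild type and 28.3 times in the knockout, against 13.6 and 10.7 over the rest of chromosome 1 and 2.15 and 2.36 in HIST1. A fold in HIST2 is therefore a ratio to a raised local rate. Whether a control library entered this rate is not given in the sources used here. Whether the crowded regions raise the rate by their own signal was not tested.

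**Figure D1:**
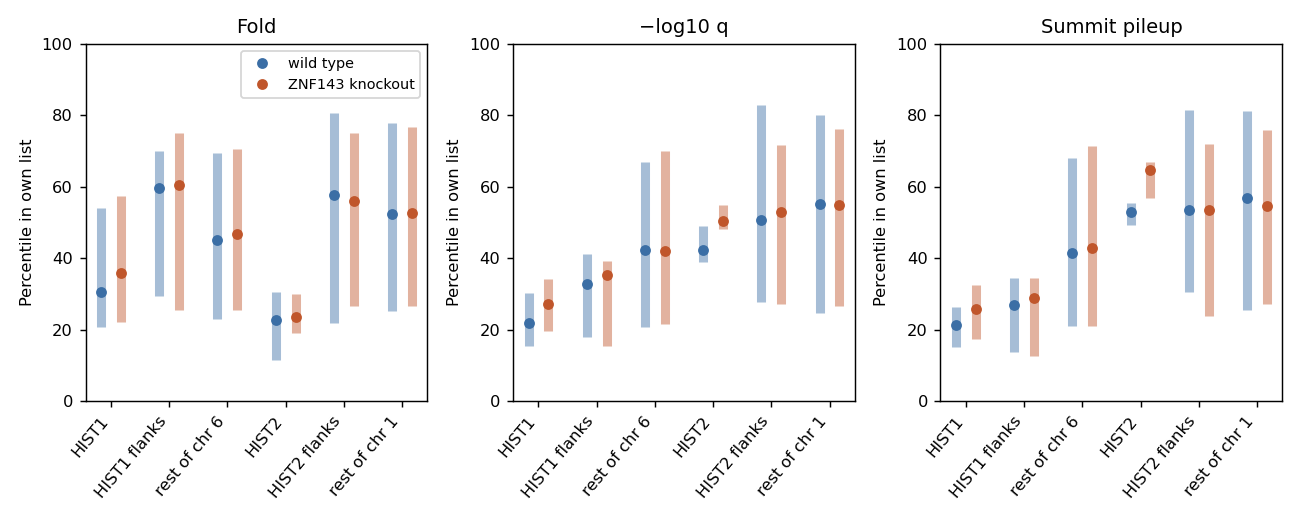
Within-list percentiles of fold, −log10 q and summit pileup (vertical axes, 0 to 100) for the HIST1 and HIST2 windows, their flanks of 2 Mb on each side and the rest of chromosomes 6 and 1. Points are medians over regions and bars run from the lower to the upper quartile, with wild type and knockout in separate colours. HIST1 sits low on all 3 scales, while HIST2 sits low by fold (22.7 and 23.5) and near the middle of the lists by pileup (52.9 and 64.8).

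With gaps of 100 kb or more as breaks, the HIST1 regions of both lists formed 3 runs. The first spanned chr6:26020683-26660386 (639.7 kb) with 33 wild-type and 30 knockout regions. The second spanned chr6:26924148-27487279 (563.1 kb) with 20 and 22, and lay 263.8 kb further on. The third spanned chr6:27598978-27862577 (263.6 kb) with 14 and 15, after a gap of 111.7 kb. The runs were not matched to the 3 gene groups, which come from another build. Their median fold percentiles were 30.5 in wild type and 42.1 in the knockout for the first, 34.4 and 33.5 for the second, and 23.9 and 26.2 for the third.

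Within the runs, stretches of low fold alternated with stretches of high fold. In the first 100 kb from the start of the window's regions, the median fold percentile was 21.9 over 7 regions in wild type and 35.8 over 7 in the knockout. Between 400 and 500 kb, 4 regions had 74.4 in wild type and 4 had 81.2 in the knockout. Between 900 and 1000 kb, 2 regions had 77.7 and 75.1. Between 1000 and 1100 kb, 6 regions had 20.4 and 20.1. The local rate did not follow the fold in a single way. In wild type its median was 4.66 times the genome rate between 100 and 200 kb, where 9 regions had a median fold percentile of 27.9, and 2.28 times between 400 and 500 kb. Between 1200 and 1300 kb it was at the genome rate, 1.00 times, and the 4 regions there had a median fold percentile of 20.8.

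**Figure D2:**
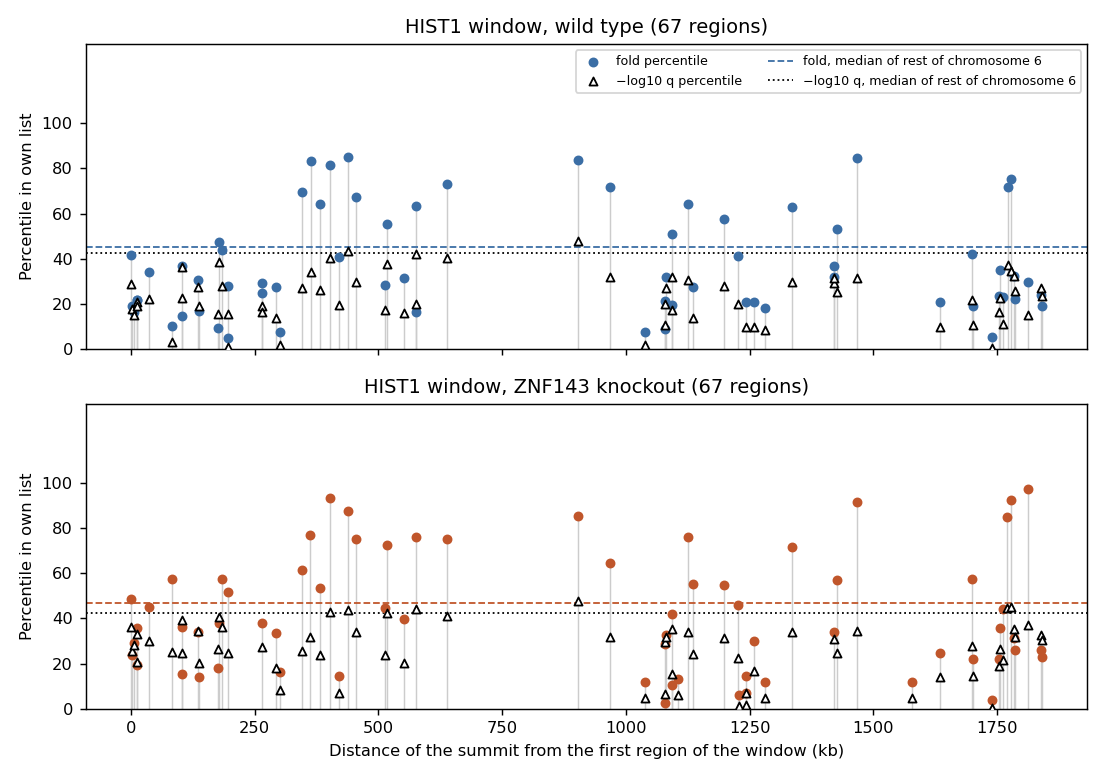
Within-list percentile (vertical axis) of each HIST1 region against the distance of its summit from the first region of the window in kb (horizontal axis), with wild type above and knockout below. Filled circles give the fold percentile, open triangles the −log10 q percentile, and horizontal lines the medians of the rest of chromosome 6. The triangles stay below 50 in both panels, while the highest circles in the stretch from 400 to 500 kb pass 80.

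The region of highest −log10 q in HIST1 was the same in both lists and opened the second run. At chr6:26924148-26925419 it had a pileup of 134 fragments, a fold of 17.4 and a −log10 q percentile of 48.0 in wild type, and in the knockout (chr6:26924152-26925459) 237 fragments, 17.2 and 47.5. In the first run the leading wild-type region was chr6:26458175-26458998, with 103 fragments, a fold of 17.7 and a percentile of 43.6. The leading knockout region there was chr6:26596740-26598104, with 211 fragments, a fold of 15.2 and a percentile of 44.1. In the third run the leaders were chr6:27791877-27792815 in wild type (77 fragments, fold 15.0, percentile 37.1) and chr6:27798447-27799381 in the knockout (198 fragments, fold 19.3, percentile 45.2). By −log10 q even these leaders stood below the median of their lists. By fold they stood above it, at percentiles of 71.9 to 85.2 in wild type and 75.8 to 92.4 in the knockout.

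The 5 widest HIST1 regions of wild type measured 1150 to 1272 bp. They were the leader of the second run and regions starting at chr6:27861285, 26124415, 26055442 and 26659230. The 5 widest of the knockout measured 1365 to 1776 bp and started at chr6:27439983, 26285104, 27218392, 26124381 and 26596740. Of these knockout regions, 3 each covered 2 wild-type regions. The one starting at 27439983 had a pileup of 121 fragments where wild type had regions of 66 and 73 separated by 214 bp. The one starting at 26285104 had 80 fragments over wild-type regions of 28 and 25, 220 bp apart. The one starting at 26596740 had 211 over wild-type regions of 45 and 113, 204 bp apart. These 3 were the only joined regions among the 67 HIST1 regions of the knockout. Over the whole list, joining of this kind was seen in 1035 of 19647 knockout regions. A choice by width favours joined regions, so their place among the widest is not a trait of HIST1.

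The HIST2 regions lay almost symmetrically about a point near the middle of the window. A region counted as mirrored when its image overlapped another region by at least 50% of the wider one. With the axis that gave the most mirrored regions, chosen after the positions were seen, 8 of the 12 regions in each list fell into 4 pairs, with overlaps of at least 85.1%. The axis was at chr1:149818479 in wild type and chr1:149818471 in the knockout. The outermost pair, chr1:149803366-149805152 and chr1:149831838-149833591, had 147 and 165 fragments in wild type and 400 and 363 in the knockout. The next pair inwards, starting at 149811998 and 149824155, had 216 and 199 fragments in wild type and 508 and 567 in the knockout. These mirrored regions had nearly equal pileups in 1 library.

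Both inner pairs had close pileups in each library as well. The pair starting at 149813175 and 149822657 had 233 and 236 fragments in wild type and 561 and 542 in the knockout. The innermost pair, starting at 149814498 and 149821672, had the highest pileups of the window, with 365 and 381 in wild type and 652 and 641 in the knockout. The mirrored gene order and the identical promoter letters above belong to the same cluster. Reads that fall wholly within identical copies cannot be told apart between them, and how such reads were placed is not given in the sources used here. Whether the values of a mirrored pair are independent was not tested.

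The other 4 HIST2 regions had no mirror image. On the left, chr1:149783363-149783904 had 93 fragments in wild type and 243 in the knockout, and chr1:149784305-149785257 had 218 and 465. On the right, chr1:149857270-149858204 had 238 and 590, and chr1:149858493-149859503 had 216 and 558. The region starting at 149784305 had the highest fold of the window, 12.9 and 12.3, at percentiles of 59.5 and 57.2.

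Neighbours closer than 500 bp were common in HIST2. In each list 10 of its 12 regions (83.3%, exact Clopper-Pearson 95% interval 51.6 to 97.9) had one, against 29.8% of all regions in wild type and 24.0% in the knockout. In HIST1 it was 21 of 67 (31.3%) and 19 of 67 (28.4%), near those shares, but above the 6.25% and 5.71% of its flanks. Both HIST3 regions were such neighbours. The close pairs numbered 11 in HIST1, 6 in HIST2 and 1 in HIST3 in wild type, and 10, 6 and 1 in the knockout, with gaps from 202 to 400 bp in wild type and 184 to 397 bp in the knockout. Over the windows together, the stronger summit of a pair had a median of 1.41 times the pileup of the weaker in wild type. In the knockout it had 1.36 times, against 2.01 and 2.11 over all close pairs of the lists. The medians were 1.35 and 1.53 in HIST1 and 1.38 and 1.13 in HIST2, while the 1 pair of HIST3 stood higher, at 3.21 and 2.71. The HIST2 pairs include mirrored regions, whose independence was not tested. This way of counting neighbours was chosen after the positions were seen.

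HIST3, with its neighbouring genes H2AC25 and H2BC26, held 1 strong and 1 weaker region. The region chr1:228644687-228645567 had 392 fragments and a fold of 14.6 in wild type and 601 fragments and a fold of 12.7 in the knockout. Its −log10 q percentile was 81.5 and 70.6, the highest of all members in both lists. The region chr1:228645847-228646719 had 122 and 222 fragments, a fold of 4.56 and 4.69 and percentiles of 29.8 and 31.6.

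Nearly all member regions were present in both genotypes. In HIST1, 65 of the 67 wild-type regions (97.0%, 89.6 to 99.6) overlapped a knockout region, so 2 did not, where 5.53% of all wild-type regions had no overlap. Of the knockout regions, 62 of 67 (92.5%, 83.4 to 97.5) overlapped a wild-type region, where 9.67% of all knockout regions had no overlap. These shares are near the background of the lists. All regions of HIST2 and HIST3 were shared.

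The unshared regions were among the weakest of their lists. The wild-type regions were chr6:26216429-26216599, with 10 fragments, and chr6:27759683-27759898, with 8, and each had a knockout region within 596 bp. The knockout region chr6:27759923-27760101, with 12 fragments, was also unshared and lay 24 bp from the second of these. The other unshared knockout regions were chr6:27125407-27125769 with 18 fragments, chr6:27248321-27248665 and chr6:27264349-27264582 with 14 each, and chr6:27598978-27599162 with 17. The last opened the third run and lay 56277 bp from the nearest wild-type region. None of the 7 stood above a −log10 q percentile of 6.05.

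Where a wild-type and a knockout region overlapped only each other, they were compared as a pair, which gave 59 pairs in HIST1, 12 in HIST2 and 2 in HIST3 out of 16501 over all chromosomes. The HIST1 pairs stood somewhat higher in the knockout list than in the wild-type list. The median difference in −log10 q percentile, knockout minus wild type, was 4.20 points (2.95 to 5.87), and 48 of 59 pairs were higher, where 55.6% of all pairs and 65.7% of those on the rest of chromosome 6 were. The median was 1.71 (1.29 to 2.25) over the rest of chromosome 6, 1.29 (−1.15 to 3.22) in the flanks and 0.74 over all pairs. Among pairs at a wild-type percentile of 10 to 40, a range chosen after the values were seen, the median was 4.29 for 48 HIST1 pairs and 1.61 for 4741 pairs outside the windows.

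By −log10 q, 8 of 59 HIST1 pairs stood over 10 points higher in the knockout, where 8.98% of all pairs did, and 1 stood over 10 points lower, where 6.07% did. By fold, 16 stood over 10 points higher, where 8.90% of all pairs did, and 2 lower, where 9.44% did, with a median difference of 3.84. The knockout-to-wild-type ratio of pileup, centred on the median of all pairs, had a log2 median of 0.23 in HIST1 and 0.05 over the rest of chromosome 6. It was above 0 in 48 of 59 pairs, where 50.0% of all pairs were above. The ratio of local rates, centred in the same way, had a log2 median of 0.27 in HIST1. On this scale a pair at the genome rate in both lists, such as chr6:26313487-26313852, stood at 0.18. The part of the local rate in the rank differences was not tested.

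By run, the median difference in −log10 q percentile was 4.38 points (1.82 to 7.25) in the first, with 24 of 28 pairs higher in the knockout. In the second it was 3.04 with an interval that includes 0 (−0.49 to 4.30). There 11 of 18 pairs (61.1%) were higher, where 55.6% of all pairs and 65.7% of those on the rest of chromosome 6 were. In the third it was 5.87 (3.84 to 10.4), and all 13 pairs were higher. The knockout region was the wider one in 51 of 59 HIST1 pairs and 9 of 12 HIST2 pairs, where 82.2% of all pairs were wider. The median width ratio was 1.12 in HIST1 and 1.03 in HIST2.

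The pairs that gained most were weak in wild type. The region chr6:27833080-27833433 went from 18 fragments in wild type to 106 in the knockout and from a fold of 7.90 to 22.1. Its fold percentile was 29.6 and 97.2 and its −log10 q percentile 14.9 and 37.1. The region chr6:26104207-26104418 had 10 fragments and 53, a fold of 4.58 and 12.3 and a width of 212 and 749 bp, at −log10 q percentiles of 3.03 and 25.1. The region chr6:26026968-26027453 had 30 and 106 fragments, at percentiles of 15.3 and 28.3. The pairs that lost most in −log10 q percentile were weak in both lists. The region chr6:26440376-26441030 had 23 fragments in wild type and 19 in the knockout, a fold of 9.98 and 4.71 and percentiles of 19.7 and 7.15. The regions chr6:27099218-27099670 (28 and 43 fragments) and chr6:27300924-27301316 (13 and 17) stood at 10.8 and 8.34 in wild type and 6.55 and 4.90 in the knockout.

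In HIST2 the shift by −log10 q had the opposite sign to that of its chromosome. The median difference in −log10 q percentile was 8.05 points (4.30 to 8.74), with 10 of 12 pairs higher in the knockout, where 55.6% of all pairs and 34.9% of those on the rest of chromosome 1 were. The median was −2.14 over the rest of chromosome 1 and −3.71 in the flanks. Of the 12 pairs, 2 stood over 10 points higher, where 8.98% of all pairs did, and 0 over 10 points lower, where 6.07% did, so these counts are near the background. By fold the median difference was 4.88 points with an interval that includes 0 (−2.28 to 8.71), beside −0.35 over the rest of chromosome 1. Counts and intervals here take the 12 pairs as separate, and 8 of them are mirrored regions whose independence was not tested. By −log10 q, the only pairs that stood lower were the innermost mirrored regions, at 58.4 in wild type and 55.0 in the knockout, and at 62.5 and 54.7. The centred pileup ratio had a log2 median of 0.36, against −0.15 over the rest of chromosome 1. The centred ratio of local rates had 0.08, against −0.16 over the rest of chromosome 1. A pair at the genome rate in both lists stood at 0.18 on that scale. In HIST3 the difference was −11.0 points for the stronger region and 1.81 points for the weaker.

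**Figure D3:**
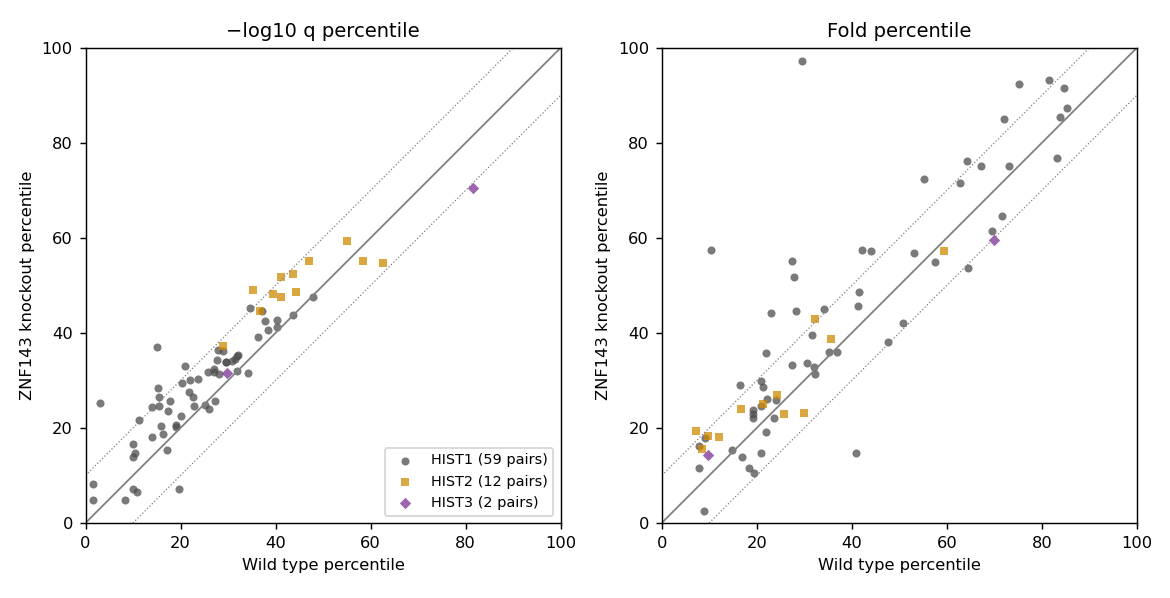
Knockout against wild-type within-list percentile of each member pair, by −log10 q on the left and by fold on the right, with HIST1 as circles, HIST2 as squares and HIST3 as diamonds. The solid line marks equal percentiles and the dotted lines a difference of 10 points. Most circles and squares lie above the solid line on the left, 48 of 59 and 10 of 12, and the circle far above it on the right is the pair at fold percentiles 29.6 and 97.2.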

How the data were processed

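H3K4me3 ChIP-seq regions in HEC-1-B cells were analysed from 2 libraries, 1 wild type and 1 ZNF143 knockout. The submitters' processing notes name Bowtie2, MACS2, SAMtools 1.12 and deepTools with GRCh37/hg19. Their settings, read totals and any control library are not given in the sources used here. The deposited lists have no header and 10 columns: the authors' score, their fold (a ratio), −log10 p-value, −log10 q-value and the summit offset. The deposited score was not used. These values were ranked within 1 list only. Summit pileup and local rate were solved from the deposited fold (pileup plus 1 over rate plus 1) and −log10 p (Poisson tail). In lists simulated with the same 2 formulas 100% of pileups were recovered. That checks the solving and not whether the deposited values follow the formulas. In the deposited lists the largest relative error of the −log10 p given back was 8.56e-06 in wild type and 1.17e-05 in the knockout. Positions are hg19, counted from 1. Regions on unassembled and haplotype sequences (785 wild-type, 862 knockout) were left out. Intervals of medians are exact binomial order-statistic intervals, those of shares exact Clopper-Pearson, both at 95%. Density outside a window used the span from the first to the last region of the chromosome.

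Groups follow the genotype labels. Named regions are all of HIST2 and HIST3 and, in HIST1, the highest −log10 q per run, the 5 widest, the 3 largest rank differences each way and all unshared regions. Members, lists and rules were chosen with earlier results of these data known. Alternatives covered the q threshold, overlap, merging, ranking measure, membership, window width and gap. The software was scipy 1.17.1 and pandas 2.3.3 on Python 3.11.15 with numpy 2.4.6, and plots were drawn with matplotlib 3.10.9.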

Additional observations from a re-analysis of the deposited data

How the results depend on the processing

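Under the alternatives, 82 recomputed values stayed within the interval of the reported value (counts and densities within 1.5 times) and 15 moved further. None reversed, but a reversal meant a change of sign, which only the rank differences could show. Membership by summit left every recomputed value unchanged. The share of wild-type HIST1 regions with a knockout partner, 97.0% as reported, was 100% with only regions of −log10 q of at least 5, 100% with a partner within 1 kb and 83.6% with a reciprocal overlap of 50%. Merging regions within 1 kb raised the median width of HIST1 to 776 bp in wild type and 864 bp in the knockout and that of HIST2 to 2064.5 and 2094.5 bp, and lowered the HIST2 density to 75 regions per Mb in each list. Widening the windows by 100 kb on each side gave HIST2 64.3 regions per Mb in each list. With percentiles over the same chromosome alone, the median −log10 q percentile of HIST1 was 27.9 in wild type and 33.1 in the knockout, and that of HIST2 in the knockout was 45.5. A gap of 50 kb gave 13 runs in HIST1 in place of 3. A gap of 200 kb gave 2, which is at the limit of 1.5 times and was counted as within it. The number of runs thus depends on the gap chosen. For merging, widening and the other gap sizes the change follows from how the alternative is built, and for the others the cause was not tested. The counts of close neighbours within 1 kb or at −log10 q of at least 5, and the range of 10 to 40, were added after seeing the data.

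No paired analysis was possible because there was 1 library per genotype. Leaving out a replicate was likewise not possible. The genome rate was 2.31 times lower in wild type, and read totals are not given. How far this limits what the wild-type list can show of weak regions was not tested. A region missing from 1 list was not called there, which does not show that the mark was absent.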

Other observations

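The stretch from H1-1 to H2BC17 in the RefSeq table holds more than histone genes. It lists 98 tRNA genes, which are transcribed by RNA polymerase III, and 15 protein-coding genes that are not replication-dependent histone genes. Beside them it lists 32 pseudogenes and 23 long non-coding RNAs. The members described above are all H3K4me3 regions of the windows, so some may belong to such genes, and which ones was not determined here.

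Without the positions from 28 to 34 Mb, the rest of chromosome 6 had a median −log10 q percentile of 49.2 in wild type and 49.8 in the knockout.

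The HIST1 window ends inside a stretch of marked regions. The next region beyond it, chr6:27870831-27871516 in wild type, lay 8.29 kb after the last member and stood at a −log10 q percentile of 14.9. Before the window, the nearest region in wild type was chr6:25992182-25993550, 27.2 kb away, at a percentile of 31.7.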
